A study of Mus musculus and Meriones unguiculatus with 4 samples.

Results

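The genes described here are 10 members of the fibroblast growth factor (Fgf) pathway. They were chosen by name and not by a rule on their values, though with earlier results of these data known. They are the receptors Fgfr1, Fgfr2 and Fgfr3, the feedback inhibitors Spry1, Spry2, Spry4, Spred1 and Dusp6, and the transcription factors Etv4 and Etv5. All 10 had a row in the mouse table and 9 had one in the gerbil table. Of these, 8 were listed once in each table and passed the filter on low values, among 10331 genes measured in both species. RNA came from frozen sections of lower-jaw tooth germs, from which the region of the enamel knot was cut with a laser, in wild-type mouse at embryonic day 13 and wild-type gerbil at embryonic day 15; the source is labelled epithelial cells. Each species had 2 libraries, 4 in all, so species and embryonic day cannot be told apart. The mouse libraries are called PEK and SEK here, and the gerbil libraries E21 and E23, after the endings of their columns. The sources used here do not explain these endings or say how many animals a library holds. If E21 and E23 stood for embryonic days, they would differ from the labelled day 15. The 2 libraries of a species may thus differ in stage or region or only technically.

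Fgf receptors are tyrosine kinases of the cell surface that bind Fgf ligands and pass the signal through Ras to the kinase ERK. ERK signalling switches on Etv4 and Etv5, and also a set of genes that damp it: the Sprouty and Spred proteins act upstream of ERK, and Dusp6 is a phosphatase that inactivates ERK itself. Enamel knot cells, a transient signalling group within the tooth germ epithelium, secrete Fgf ligands, and these act on both the surrounding epithelium and the underlying mesenchyme.

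Levels below are the deposited values, which are already per transcript length, rescaled to a sum of 1000000 over the genes matched between the tables. Each species has its own table, normalized apart from the other by the authors, and the values used carry no depth. The gerbil table also holds read counts and RPKM, which were not used here. Long transcripts read higher in the gerbil table: the median gerbil minus mouse log2 value was -1.77 over the shortest 10% of genes and 1.43 over the longest. Each library was corrected for this length trend, and a difference between species is called when both libraries of one species lay at least 2-fold above both of the other. No test was run between the species, because the separate normalization of the tables and the species cannot be told apart.

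The region carried epithelial RNA in every library, with RNA of other cell types beside it. All 11 markers of dental epithelium were matched, with summed levels from 6975 to 9448 over the 4 libraries. The 15 mesenchyme markers summed to 1287 and 1627 in mouse PEK and SEK and to 2097 and 3602 in gerbil E21 and E23. These sums still hold the length trend. After its removal, Barx1 (log2 difference -2.73), Msx1 (-2.64) and Twist2 (-2.14) were called higher in mouse and 0 in gerbil. The shares over all genes were 15.0% and 13.5%, and the median difference of the 15 was 0.44. The summed level of endothelial markers (7 of 8 matched) was 9.86 in mouse PEK, 33.6 in mouse SEK, 7.84 in gerbil E21, where Emcn and Esam are listed at 0, and 136 in gerbil E23. The 9 matched knot markers summed to 4946 (PEK) and 2860 (SEK) in mouse and 1879.5 (E21) and 1818 (E23) in gerbil. Of them, 3 (Fgf4, Cdkn1a and Wnt10a) were called higher in mouse and 0 in gerbil, beside 15.0% and 13.5% of all genes. Cdkn1a made up much of the gap in sums (PEK 1565, SEK 1019, E21 60.0, E23 37.1). Among uncalled markers, Wnt10b (log2 difference -1.23), Lef1 (-1.21), Bmp2 (-1.17) and Bmp4 (-0.47) had lower gerbil means. Shh (0.04) and Dkk4 (0.18) had small differences, with Shh levels of PEK 946, SEK 609, E21 963 and E23 1186. Skeletal muscle markers (8 of 10 matched) summed to 156 and 442 in mouse and 14.5 and 26.4 in gerbil. The part of these markers' cell types in the species differences below was not tested. Fewer cells of a type and less RNA per cell cannot be told apart in such samples.

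None of the 8 members measured in both tables was called different between gerbil and mouse. Over all genes measured, 13.5% were called higher in gerbil and 15.0% higher in mouse. The members' log2 differences (gerbil minus mouse) ran from -0.75 to 1.83, with a median of -0.18 beside -0.02 over all genes. Their median size without regard to sign was 0.55, beside 0.90 over all genes. The species did not overlap for 3 of the 8, Spry2, Spred1 and Etv4, while 74.4% of all genes did not overlap.

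Some members were called under other settings, and each of those calls was higher in gerbil. With the length trend left in, Spred1 was called, beside 18.5% of all genes called higher in gerbil and 19.5% higher in mouse. With centring left out as well, Fgfr2 and Spred1 were called, beside 29.4% and 12.2%. Spred1 was called with no filter on low values (12.6% of all genes higher in gerbil and 13.6% in mouse) and with a mean level of at least 10 in each species (10.3% of all genes higher in gerbil and 11.7% in mouse). Without mouse PEK, Spry2 and Dusp6 were called (19.4% of all genes higher in gerbil and 20.7% in mouse). Without mouse SEK the count stayed 0 (17.4% and 20.0%). Spred1 was called without gerbil E21 (17.6% and 19.0%) and Spry2 without gerbil E23 (16.3% and 18.9%).

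**Figure D1:**
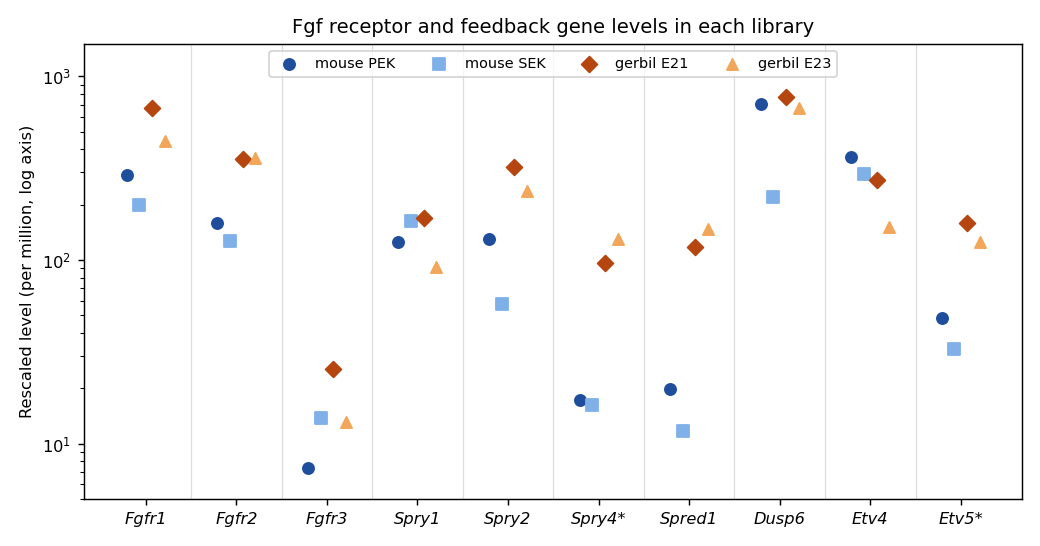
Rescaled level of each of the 10 genes (log axis, per 1000000) in mouse PEK and SEK (blue) and gerbil E21 and E23 (orange), 1 point a library. Dusp6 stood highest in 3 of the 4 libraries and Fgfr3 lowest in 3; an asterisk marks Spry4, whose gerbil row was taken by its description, and Etv5, whose 2 mouse rows were summed.

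Among the receptors, Fgfr1 and Fgfr2 were abundant in every library and Fgfr3 was low. In the mouse table (GRCm38) Fgfr1 lies on chromosome 8 (25513654 to 25575714) and Fgfr3 on chromosome 5 (33721674 to 33737068). Fgfr1, the receptor gene of broad use in both epithelium and mesenchyme, was at 289 in mouse PEK, 199 in mouse SEK, 675 in gerbil E21 and 447 in gerbil E23. These levels exceeded those of at least 89.4% of measured genes in each library. On levels the gerbil libraries lay above the mouse ones, but after removal of the length trend the 4 libraries overlapped, with a log2 difference of -0.30 ± 0.29 (SE, n = 2 each). The sign of that difference turned without the removal (0.58).

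Fgfr2, whose epithelial splice form is needed for tooth growth past the bud, was at 159.5 (PEK) and 126 (SEK) in mouse but at 354 in gerbil E21 and 357 in gerbil E23. Both gerbil libraries stood higher in level, yet the corrected libraries overlapped at a log2 difference of -0.07 ± 0.11. It was 0.70 with the length trend left in. The mouse value is for a merged locus: its row spans positions 130162451 to 133124354 of chromosome 7 in GRCm38, which takes in all of Ctbp2 (132987563 to 133124354), a transcriptional corepressor gene that has 0 rows of its own in the mouse table. In the GENCODE annotation Fgfr2 itself reaches to 133123350 there. In gerbil, the Ctbp2 level was 60.5 (E21) and 79.2 (E23), and adding it to gerbil Fgfr2 gave a log2 difference of 0.17, again with no call.

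Fgfr3, best known as a brake on bone growth, was at 7.36 (PEK) and 13.8 (SEK) in mouse and at 25.6 (E21) and 13.2 (E23) in gerbil. The species overlapped, and the log2 difference of -0.38 ± 0.76 was smaller than its error. It was -1.01 without mouse PEK, 0.26 without mouse SEK and 0.19 with the length trend left in. Within each library Fgfr1 stood above Fgfr2, by 1.81 and 1.58 times in mouse PEK and SEK and 1.91 and 1.25 times in gerbil E21 and E23. The Fgfr1 to Fgfr3 ratio lay between 14.5 and 39.2, and both ratios overlapped between species.

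**Figure D2:**
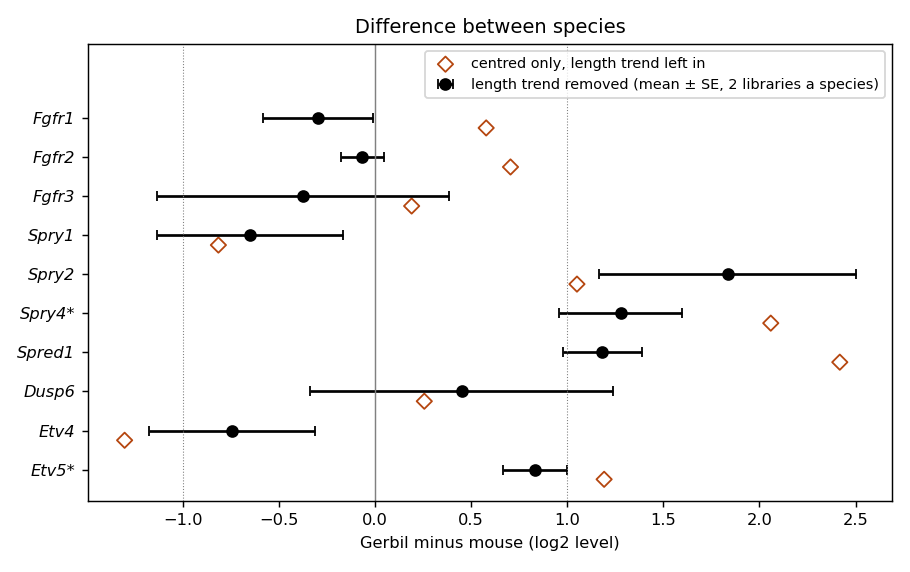
Gerbil minus mouse difference in log2 level for each gene, as mean ± SE of 2 libraries a species with the length trend removed (black), and with libraries centred only (open diamonds); dotted lines mark 2-fold. The receptors sit near 0 after the removal, while Spry2 (1.83), Spry4 (1.28) and Spred1 (1.18) lie farthest toward gerbil.

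The Sprouty genes encode inducible inhibitors of receptor tyrosine kinase signalling. In the mouse table Spry2 lies on chromosome 14 (105888721 to 105897192) and Spry1 on chromosome 3 (37639947 to 37644679). Spry2 was at 129 (PEK) and 57.9 (SEK) in mouse and at 322 (E21) and 238 (E23) in gerbil, so both gerbil libraries were higher. Its corrected log2 difference was 1.83 ± 0.67, and the nearest libraries of the species stood 0.996 apart on the log2 scale, just short of the 2-fold call. It was called, at these differences, without mouse PEK (2.47), without gerbil E23 (2.04) or with rows of one symbol summed (1.89, with 13.5% and 15.0% of all genes called as before). Without mouse SEK the difference was 1.20, and with the length trend left in it was 1.05.

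Spry1 was at 125 (PEK) and 163 (SEK) in mouse and at 168 (E21) and 91.1 (E23) in gerbil. The species overlapped, and the log2 difference of -0.65 ± 0.48 met no call. The Spry2 to Spry1 ratio was 1.04 in mouse PEK and 0.355 in mouse SEK, against 1.91 and 2.61 in gerbil E21 and E23. The gerbil ratios both exceeded the mouse ones, though the mouse libraries lay farther from each other than PEK lay from E21, and they did so also on the corrected scale, where the log2 ratio was -0.19 and -1.92 in mouse and 1.28 and 1.72 in gerbil.

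Spry4 has no gerbil row under its symbol, and the row described as sprouty RTK signaling antagonist 4 was taken in its place after the values had been seen. It was at 17.3 (PEK) and 16.2 (SEK) in mouse and at 96.3 (E21) and 131 (E23) in gerbil. All gerbil values lay above all mouse values, with a corrected log2 difference of 1.28 ± 0.32 that met no call, and one of 2.06 that was called higher in gerbil when the length trend was left in. The gerbil models of Spry1, Spry2 and Spry4 span 942, 948 and 903 bases, equal to the coding lengths with stop codon of the mouse genes in GENCODE. The mouse exon unions are 2906, 2087 and 4755 bases, so the length that the deposited values are divided by may differ between the species for these genes, and its part in the differences was not tested.

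Spred1 encodes a membrane-bound inhibitor of signalling through Ras and lies on chromosome 2 (117121043 to 117182279). It was at 19.8 (PEK) and 11.8 (SEK) in mouse and at 118 (E21) and 148 (E23) in gerbil. Both gerbil libraries were far above both mouse libraries in level, but the transcript is long (6784 bases of exon) and the correction took much of the difference away. It left a log2 difference of 1.18 ± 0.20, with a gap of 0.97 between the nearest libraries. The difference was 2.42, and called higher in gerbil, with the length trend left in. It was 1.28 with no filter on low values, 1.41 with a mean level of at least 10 in each species, 1.39 without gerbil E21 and 0.69 when a GC trend was also removed.

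Dusp6, the ERK phosphatase gene on chromosome 10 (99263231 to 99267502), was the most abundant member in mouse PEK (703), gerbil E21 (776) and gerbil E23 (671), and stood at 221 in mouse SEK. Mouse PEK lay with the gerbil libraries and mouse SEK below them, so the species overlapped, with a log2 difference of 0.45 ± 0.79. The value depended on the mouse library used: it was 1.24, and called higher in gerbil, without mouse PEK and -0.34 without mouse SEK.

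Etv4 and Etv5, ETS transcription factors that act in response to Fgf signals, leaned in opposite directions. They lie on chromosome 11 (101769742 to 101785371) and chromosome 16 (22381307 to 22439719). Etv4 was at 362 (PEK) and 295 (SEK) in mouse and at 271 (E21) and 151 (E23) in gerbil. Both mouse libraries were the higher ones, but the log2 difference of -0.75 ± 0.43 met no call, also with the length trend left in (-1.30) or a GC trend removed as well (-0.23). Etv5 is listed at a second mouse locus of 451 bases on chromosome 17, at 2.01 FPKM in PEK and at 0 in SEK, and was therefore left out of the count of 8. With its rows summed it was at 48.3 and 32.7 in mouse and at 159 and 126 in gerbil E21 and E23, a corrected log2 difference of 0.83 ± 0.17 that met no call. With neither centring nor removal of the length trend it was 1.80 and called, or 1.20 relative to the shift of all genes.

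The Etv4 to Etv5 ratio was 7.48 and 9.02 in mouse PEK and SEK and 1.71 and 1.20 in gerbil E21 and E23. On the corrected scale the log2 ratio was 2.63 and 2.51 in mouse and 1.27 and 0.71 in gerbil. Of the 5 ratios within a family that were computed, this one and Spry2 to Spry1 did not overlap between species, and the 3 receptor ratios did. The share of other gene pairs whose ratio does not overlap was not computed, and 74.4% of single genes do not, so nothing particular to these pairs is read from the count.

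**Figure D3:**
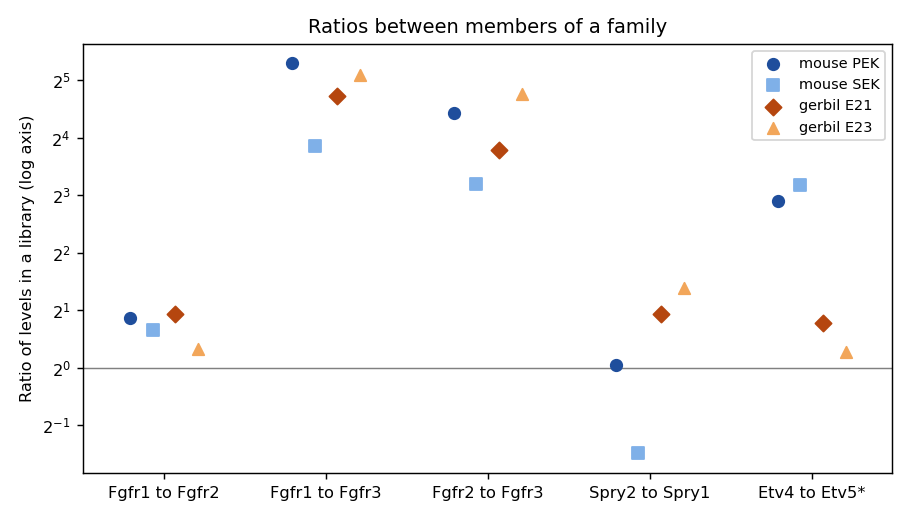
Ratio of the levels of 2 members of a family within each library (log axis), 1 point a library, with a line at a ratio of 1. Spry2 to Spry1 is higher in both gerbil libraries (1.91 and 2.61) than in mouse (1.04 and 0.355), Etv4 to Etv5 is higher in both mouse libraries (7.48 and 9.02), and the receptor ratios overlap.

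Between the 2 mouse libraries, Dusp6 and Spry2 were lower in SEK and Fgfr3 was higher, while the other members stayed within 2-fold. With 1 library each there is no replicate check on these differences. Dusp6 was 2.97-fold lower in SEK than in PEK on the corrected scale (log2 -1.57) and Spry2 was 2.41-fold lower (-1.27, and within 2-fold when the length trend was left in). Fgfr3 differed by 1.28 on the log2 scale toward SEK at a low level, and was within 2-fold with neither centring nor correction. Over all genes, 8.43% were at least 2-fold lower in SEK and 7.51% at least 2-fold higher, or 11.6% and 8.51% with the length trend left in. Spry1 (0.44), Spry4 (0.40), Spred1 (-0.02), Etv4 (-0.36) and Etv5 (-0.25) did not follow Dusp6 and Spry2.

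Of the 14 ligands and ligand-binding proteins measured, 4 were at least 2-fold lower in SEK and 3 at least 2-fold higher. Fgf20 was at 454 in PEK and 31.8 in SEK (log2 -4.10), Fgf15 at 310 and 121 (-1.54) and Fgf4 at 155 and 53.7 (-1.44). Fgf18 was also lower, at low levels (2.07 in PEK and 0.395 in SEK, log2 -1.48). Those higher in SEK were Fgf1 (1.91), Fgfbp1 (1.60) and Fgf8 (1.09). Of these, Fgf1 (2.60 in PEK and 8.08 in SEK) and Fgf8 (1.26 and 5.27) were at low levels. The abundant Fgf9 (0.06) and Fgf3 (-0.41) stayed within 2-fold. Of the feedback genes outside the 10, Spred2 (-1.50), Spred3 (-1.84) and Rasa1 (-1.01) were at least 2-fold lower in SEK and Dusp5 (1.25) was higher. The enamel knot marker list, which itself holds Fgf4, moved with these genes: 5 of its 9 matched members were at least 2-fold lower in SEK and 0 higher. Among endothelial markers 6 of 7 measured were at least 2-fold higher in SEK. The part of these cell type differences in the Dusp6 and Spry2 values was not tested.

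Between the 2 gerbil libraries, 0 of the 8 measured members differed by 2-fold, beside 3.60% of all genes lower and 6.02% higher in E23 (3.73% and 5.82% with the length trend left in). The differences (E23 minus E21) ran from -0.86 for Spry1 to 0.41 for Spred1, with a median of -0.49 beside -0.01 over all genes. Fgfr3 (-0.82), Etv4 (-0.79) and Fgfr1 (-0.57) were also lower in E23, and Dusp6 (-0.15) and Fgfr2 (0.05) were close in both. Of the endothelial markers, 6 of 7 measured were at least 2-fold higher in E23, with a median of 4.28. Of the 9 knot markers 2 were at least 2-fold lower in E23 and 0 higher (median -0.47), and of 8 muscle markers 4 were higher and 0 lower. The part of these cell types in the members' values was not tested.

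**Figure D4:**
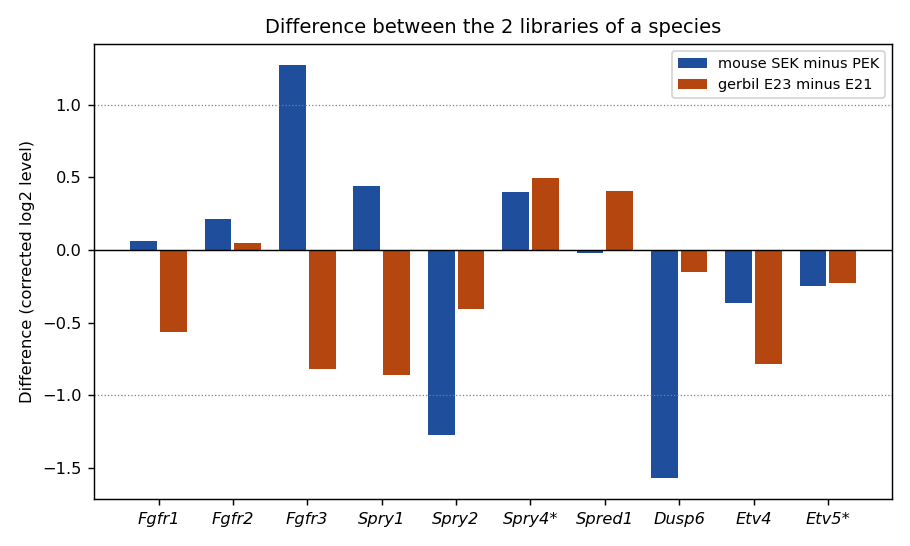
Difference in corrected log2 level between the 2 libraries of a species, mouse SEK minus PEK (blue bars) and gerbil E23 minus E21 (orange bars), with dotted lines at 2-fold. Dusp6 (-1.57) and Spry2 (-1.27) in mouse lie below the lower line and Fgfr3 (1.28) above the upper one, while no gerbil bar reaches either line.

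The sequences upstream of Dusp6, Spry2 and Spry1 are shown because Dusp6 and Spry2 were both lower in mouse SEK and Spry1 was not. Each is the 250 bases before the mouse transcription start from RefSeq in GRCm38.p6, read 5′ to 3′ on the gene's strand. Every GGAAG or its reverse complement CTTCC is in capitals. GGAAG is the GGAA core that ETS factors such as Etv4 and Etv5 bind, with a further G. GGAA without that G was neither marked nor counted.
Dusp6 (chr10:99262981-99263230, plus strand): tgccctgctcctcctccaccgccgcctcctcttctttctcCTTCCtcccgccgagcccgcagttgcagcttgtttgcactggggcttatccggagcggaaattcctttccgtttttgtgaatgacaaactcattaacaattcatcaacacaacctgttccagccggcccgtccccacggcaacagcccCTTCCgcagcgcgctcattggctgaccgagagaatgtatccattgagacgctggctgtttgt
Spry2 (chr14:105896820-105897069, minus strand): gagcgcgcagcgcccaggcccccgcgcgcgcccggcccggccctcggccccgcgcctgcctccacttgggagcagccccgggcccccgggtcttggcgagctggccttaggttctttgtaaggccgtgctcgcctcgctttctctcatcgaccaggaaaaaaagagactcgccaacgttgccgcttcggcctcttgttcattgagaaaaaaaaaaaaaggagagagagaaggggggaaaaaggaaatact
Spry1 (chr3:37639697-37639946, plus strand): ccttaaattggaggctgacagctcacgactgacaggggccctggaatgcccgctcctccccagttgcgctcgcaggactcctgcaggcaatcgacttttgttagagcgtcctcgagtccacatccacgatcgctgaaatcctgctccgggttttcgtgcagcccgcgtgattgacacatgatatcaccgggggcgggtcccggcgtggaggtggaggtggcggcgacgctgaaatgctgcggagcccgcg
Dusp6 holds 2 such matches and Spry2 and Spry1 hold 0, and at least 1 match is found in 64.1% of the 32851 mouse promoter windows of this length. The longer CCGGAAG, which contains GGAAG, was found in 0 of the 3 on either strand, beside 6.91% of all windows. The deposited Spry2 locus begins 373 bases upstream of the RefSeq start, so its window lies inside that locus. A match describes the letters of this window only.

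Other genes of the Fgf pathway differed more often toward mouse than toward gerbil. Of 83 genes on a list by role, 67 were measured, with 17 called higher in mouse, 2 higher in gerbil and 48 not called, beside 15.0% and 13.5% of all genes called in those directions. Their median log2 difference was -0.61, beside -0.02 over all genes. With the length trend left in, 18 were higher in mouse and 10 in gerbil, beside 19.5% and 18.5% of all genes. With centring left out as well, 16 were higher in each, beside 12.2% of all genes higher in mouse and 29.4% in gerbil. With a mean level of at least 10 in each species, 45 were measured. Of these, 8 were higher in mouse and 2 in gerbil, beside 11.7% and 10.3% of all genes. The 2 in gerbil are not the 2 first called, Fgf8 and Sos1, which did not pass this filter. Among 14 measured ligands and ligand-binding proteins, the knot ligands Fgf4 (-2.82 ± 0.73) and Fgf20 (-4.96 ± 2.46) and the Fgf carriers Fgfbp1 (-3.40 ± 0.85) and Fgfbp3 (-2.70 ± 0.48) were called higher in mouse. Fgf20 and Fgfbp3 were listed at 0 in gerbil E23, and Fgfbp1 was at 0.905 (E21) and 1.70 (E23) in gerbil. Fgf20, Fgfbp1 and Fgfbp3 did not pass the filter of a mean level of 10 in each species. Fgf8, an early ligand of dental epithelium, was called higher in gerbil (2.61 ± 1.06). That call ended with the length trend left in (1.05), with centring left out as well (1.66) and with no filter (2.38), and Fgf8 did not pass the filter of a mean level of 10 in each species. Fgf15 (-1.65 ± 0.87) and Fgf9 (-1.01 ± 0.03), the most abundant ligands that met no call, had lower corrected means in gerbil. Fgf15 was called with the length trend left in (-2.74), while the sign for Fgf9 turned with neither centring nor correction (0.10).

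The next genes act between the ligand and ERK. Of 9 other receptors and coreceptors, Fgfrl1, a receptor that lacks the kinase domain, was called higher in mouse (-1.53 ± 0.35, with no call at -1.01 when a GC trend was also removed, at -1.38 with no filter or at -1.28 with neither centring nor correction). The proteoglycan genes Gpc1 (-1.09 ± 0.30) and Sdc1 (-0.42 ± 0.49) met no call. Of 20 adaptors and kinases, 3 were called higher in mouse, among them the Ras gene Hras (-2.79 ± 0.63) and the ERK kinase gene Map2k2 (-1.82 ± 0.24), and 1 higher in gerbil, Sos1, which loads Ras with GTP (1.60 ± 0.08). The calls of Map2k2 (-1.14) and Sos1 (1.09) ended when a GC trend was also removed. Sos1, at 6.21 (PEK) and 2.93 (SEK) in mouse, also did not pass the filter of a mean level of 10 in each species.

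The remaining genes encode other inhibitors of the pathway and nuclear targets. Of 10 other feedback inhibitors and ERK phosphatases, Dusp1 (-2.28 ± 0.55), Dusp2 (-3.53 ± 0.32) and Dusp9 (-3.55 ± 0.44, listed at 0 in gerbil E23) were higher in mouse. Il17rd, an inhibitor of Fgf receptors also known as Sef (1.01 ± 0.16), and Rasa1 (-0.71 ± 0.52) met no call, but Il17rd was called higher in gerbil with the length trend left in (2.63). Of 14 other nuclear targets, 6 were higher in mouse and 0 in gerbil: the early response genes Ier2 (-6.06 ± 0.42), Ier3 (-3.77 ± 1.29, listed at 0 in gerbil E23), Egr1 (-3.70 ± 0.70) and Egr2 (-3.08 ± 1.14), the growth regulator Myc (-2.46 ± 0.25) and the ETS factor Etv1 (-1.52 ± 0.08). Ier2, Ier3, Egr1 and Egr2 were low in gerbil and did not pass the filter of a mean level of 10 in each species. The Etv1 call ended with the length trend left in (-0.30), and its sign turned with no centring either (0.31). Ccnd1, encoding cyclin D1 (1.02 ± 0.37), and the ETS factor gene Elk4 (1.09 ± 0.34) met no call. With the length trend left in, Elk4 (1.77) and Ets1, another ETS factor gene, named here after its values were seen (2.22 with the trend removed, no call), were called higher in gerbil. Whether a call in these genes differs from the absence of one among the receptors and feedback genes was not tested.

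**Figure D5:**
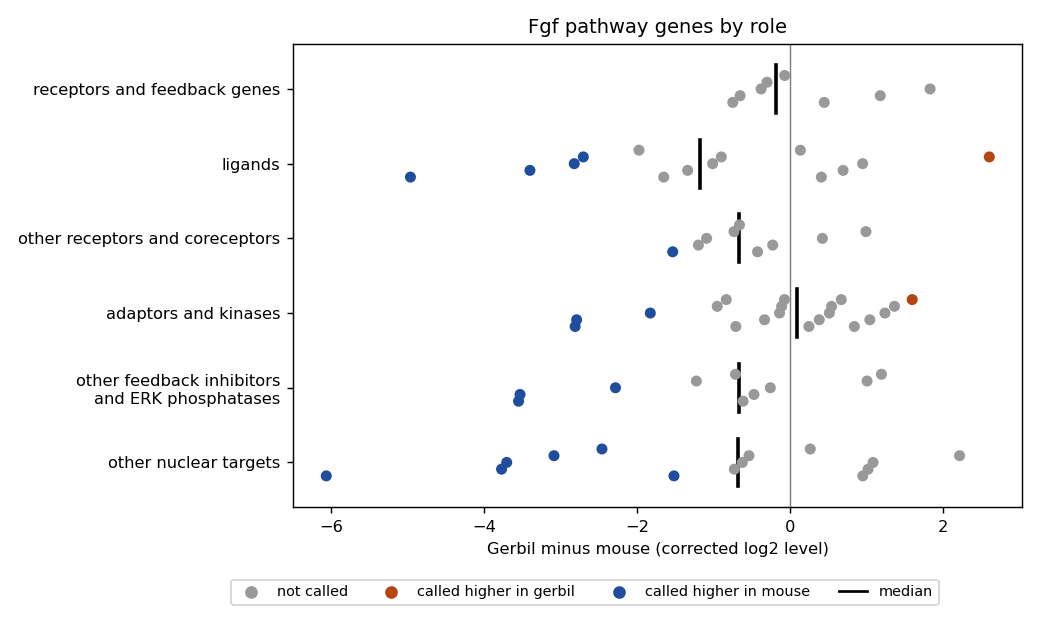
Gerbil minus mouse difference in corrected log2 level for the 8 receptors and feedback genes measured in both tables and for 67 other Fgf pathway genes by role, 1 point a gene, coloured by call, with the median as a bar. The top row holds no called gene and has a median of -0.18. The medians of the ligands (-1.17), other nuclear targets (-0.67), other feedback inhibitors (-0.66) and other receptors (-0.66) lie farther toward mouse. That of the adaptors and kinases is 0.09.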

How the data were processed

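Mouse values are FPKM per assembled locus (27632 loci) and gerbil values TPM per gene (25745 genes), both as deposited by the authors and named so per the file headers. Named in the submitters' processing notes, without a role for each, are RSEM 1.3.1, STAR 2.7.1a, cutadapt 2.8 and the builds mm10 and GRCm38. For gerbil, no build is given in these sources. The 4 further per-sample gerbil columns, of read counts and RPKM, were not used, since 1 unit was kept for each species.

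Symbols listed once in each table were matched, ignoring case (13324 genes; LOC, Gm and Rik names left out). Each library was rescaled to 1000000 over them, and log2(level + 1) was taken, which understates changes of low genes. A mean level of 1 or more and an exon length in GENCODE M21 (basic) were required. The running median of each library's deviation from the gene mean, in 40 length bins, was subtracted. This step was checked on simulated data. Computation used Python 3.11.15, numpy 2.4.6 and pandas 2.3.3.

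SE comes from 2 libraries a species. The 10 genes, the lists and the settings were chosen with earlier results of these data known. All 10 genes are named, with the called genes of the pathway list and the 2 most abundant uncalled ones of each role, apart from some adaptors and kinases that are not reported here.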

Additional observations from a re-analysis of the deposited data

How the results depend on the processing

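The number of the 10 genes called higher in gerbil was 0 of 8 measured. It became 1 (Spred1) without the length correction, under both other filters (none, or a mean level of at least 10 in each species), 1 (Spry2) with rows of one symbol summed, and 2 (Fgfr2 and Spred1) with neither centring nor length correction, where the median of all genes shifted by 0.61. Leaving out 1 library gave 0 to 2: Spry2 and Dusp6 without mouse PEK, Spred1 without gerbil E21 and Spry2 without gerbil E23. None was called higher in mouse under any setting run. The members' median difference turned to 0.42 without the length correction and 1.03 with neither step, and leaving out 1 library gave -0.31 to 0.01. For the other pathway genes, the count higher in gerbil (2) was 10 without the length correction, 16 with neither step and 4 to 8 when 1 library was left out. The count higher in mouse (17) was 19 to 22 with 1 library left out. It was 8 of 45 measured with a mean level of at least 10 in each species, a filter that drops genes low in either species. Their median (-0.61) was 0.38 with neither step, and -0.51 to -0.36 with 1 library left out. Apart from the length correction and the filters, the cause of these changes was not tested. The settings that take gerbil Spry4 by its description and add Ctbp2 to gerbil Fgfr2 were chosen after seeing the data. No paired analysis was possible because the columns carry no replicate number and no test was run. The FPKM and TPM values used carry no depth, and the gerbil read counts were not used, so no detection limit is given.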
